A study of Mus musculus with 32 samples.

Results

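The 9 genes described here encode the circadian output and loop factors Dbp, Tef, Hlf, Nfil3, Nr1d1, Nr1d2, Bhlhe40, Bhlhe41 and Rora. They were taken by gene symbol from the 26630 entries of the expression table, and each matched 1 entry. Expression, in FPKM, fragments scaled to the length of the transcript and to the mapped fragments of the library, was compared between retinas of 9 spaceflight mice (M21 to M27, M29 and M30) and 7 ground control mice (M31 to M36 and M40). CpG methylation at the same genes was compared between 8 spaceflight and 8 ground control retinas by reduced representation bisulfite sequencing (RRBS), which reads CpG-rich fragments after conversion of unmethylated cytosines. All mice were female C57 BL/6J, 21 weeks old by their labels and 16 weeks old at launch, were kept in the same type of NASA enclosure under the same light cycle, and were killed and frozen after 37 days, the flown mice in orbit and the controls at the same time on the ground. Each library came from 1 retina of 1 mouse, left or right by its label, taken from an eye of a thawed carcass. By the paper, a retinal sample yielded both DNA and RNA, so that the assays share mice and are not independent sets of animals. No time of day is given for any mouse in the sources used here.

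In mammalian cells CLOCK and BMAL1 (gene Arntl) bind E-box sequences and drive the genes of their own repressors, the PER and CRY proteins. The same pair drives the genes of a second layer of factors, which carry the rhythm to other genes through D-box and ROR elements and feed back on Arntl. The retina holds such clocks in many of its cell types, and in mouse tissues the transcripts of Dbp and Nr1d1 are among those with the strongest daily rhythm.

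DBP, TEF and HLF are leucine zipper proteins of the PAR family that activate genes with a D-box, and NFIL3 represses at the same element. NR1D1 and NR1D2 (REV-ERB alpha and beta) are nuclear receptors that repress at ROR elements, where RORA activates. BHLHE40 and BHLHE41 (DEC1 and DEC2) repress at E-boxes.

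RefSeq promoter windows of 300 bases on GRCm38.p6, running from 250 bases before a start to 50 bases after it, were at hand for 8 of the 9 genes, with a pair of starts for Tef and none for Bhlhe40. They were searched on both strands for an E-box (CACGTG), an E'-box (CACGTT), D-boxes (TTATGTAA or TTACGTAA), the core of a ROR element (TAGGTCA or TGGGTCA) and a cAMP response element (TGACGTCA). Matches were found at 5 genes and are shown because E-boxes, D-boxes and ROR elements are the sites through which the loop and these factors are known to act; the cAMP response element, a site of cAMP signalling and not of these factors, was searched beside them. Capitals mark the match, and every window is written in the direction of its gene.
Bhlhe41, E-box, chr6:145865556-145865585, minus strand: tggtacgttccgCACGTGagctgggtgctg
Tef, upstream start, E-box, chr15:81802534-81802563, plus strand: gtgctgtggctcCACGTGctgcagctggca
Tef, downstream start, E-box, chr15:81811264-81811293, plus strand: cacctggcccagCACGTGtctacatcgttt
Nr1d1, E'-box on the opposite strand, chr11:98775388-98775417, minus strand: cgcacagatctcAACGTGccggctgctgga
Nfil3, ROR element on the opposite strand, chr13:52981033-52981062, minus strand: gcgctcggaacTGACCTActaacacacatc
Hlf, cAMP response element, chr11:90390908-90390937, minus strand: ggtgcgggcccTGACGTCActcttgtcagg
The E-box of Bhlhe41 lay 153 bases before its start, those of Tef 127 and 138 bases before its starts, and the E'-box of Nr1d1 28 bases before its start. Of all 32851 such promoter windows, 7.15% held the E-box and 4.68% the E'-box, 2.61% and 3.98% the ROR core with A and with G, and 1.79% the cAMP response element. The D-box forms, with TG or CG at the centre, were in 0.938% and 0.119% of windows and in none of the members' windows. The windows of Dbp, Nr1d2 and Rora held none of the searched letters, which says only that these letters are not in these windows.

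The libraries were checked against defining genes of the retina before the members were compared. Gnat1, the rod transducin gene, was at 5749 to 12849 FPKM in spaceflight and 8269 to 12885 FPKM in ground control libraries, and cone, bipolar, amacrine and Müller glia markers were present in every library. Crystallins and other lens genes summed to 29300 FPKM in spaceflight library M22 and 38412 FPKM in ground control library M31, against at most 771 FPKM in the other spaceflight and 1456 FPKM in the other ground control libraries. Keratins and other corneal and skin genes summed to 1965 FPKM in M21 and 1035 FPKM in M22, both spaceflight, and to at most 100.5 FPKM elsewhere, and summed rod markers were lowest in M22, M21 and M31. Pigment epithelium markers summed to 6078 FPKM in spaceflight M23 and 8831 FPKM in ground control M31, against at most 3447 FPKM elsewhere, with all 7 tested genes of the list below 0 (median -0.37), and Müller glia markers to 5394 FPKM in M31, against at most 3122 FPKM elsewhere; their part in the members' levels was not tested. The condition label of M21 reads ground control while its source name reads flight, and it was taken as spaceflight. Mouse numbers in the ground control titles and in the columns of the table differ, so that the ground control columns are known by group only. In a bulk sample of this kind, fewer cells of a type and less RNA per cell cannot be told apart.

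All 9 members reached 1 FPKM in every library, which was the filter for testing, and were expressed at very different levels. Nr1d1 was the most abundant in each of the 16 libraries and Nfil3 the least. In spaceflight retinas the mean levels per length were 178 FPKM for Nr1d1, 69.7 for Rora, 65.1 for Hlf, 35.1 for Nr1d2, 31.7 for Tef, 28.2 for Bhlhe41, 28.0 for Bhlhe40, 22.4 for Dbp and 5.35 for Nfil3. The ranges of Rora and Hlf overlapped, as did those of neighbours in the order from Nr1d2 down to Dbp, while Nr1d1, the pair of Rora and Hlf, the group below them and Nfil3 were set apart without overlap of neighbours. In ground control retinas the order was 213 FPKM for Nr1d1, 67.9 for Rora, 67.5 for Hlf, 35.6 for Tef, 35.01 for Dbp, 34.8 for Bhlhe41, 31.8 for Nr1d2, 31.2 for Bhlhe40 and 5.40 for Nfil3. Dbp thus stood lower in the order in spaceflight than in ground control retinas, among genes whose ranges overlap.

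**Figure D1:**
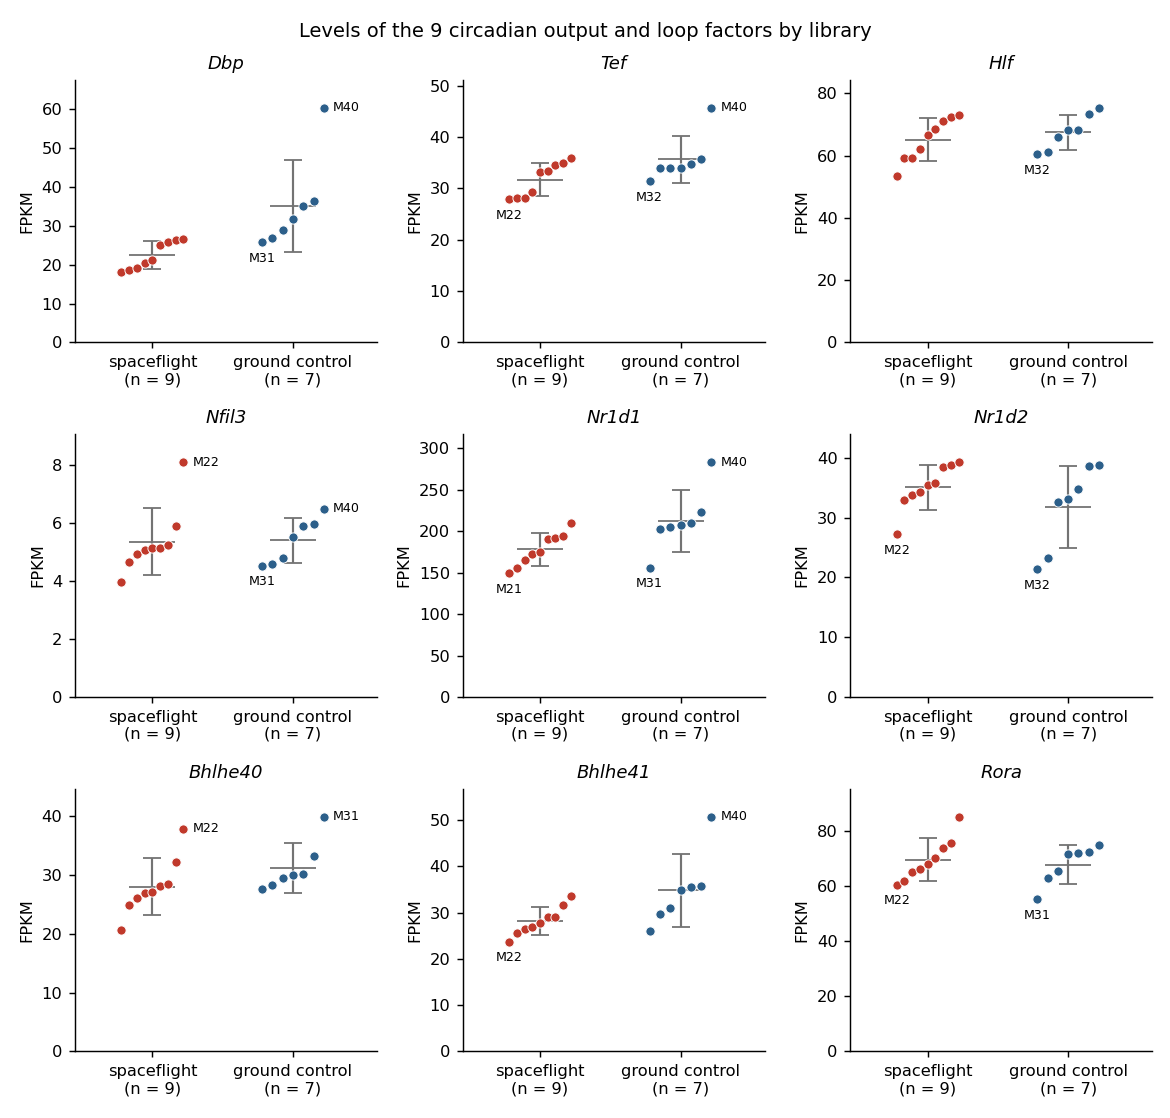
Level of each factor in FPKM (vertical axis, from 0) in the 9 spaceflight libraries (left, red) and the 7 ground control libraries (right, blue); points are libraries, the bar and whiskers are the mean and 1 SD, and libraries M21, M22, M31, M32 and M40 are named where they are lowest or highest in their group. Ground control library M40 is highest for Dbp (60.3 FPKM), Tef (45.7), Nr1d1 (283) and Bhlhe41 (50.7), and the groups overlap for every gene.

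Expression was compared with limma on log2(FPKM + 0.1) over the 12459 genes with 1 FPKM or more in all 16 libraries. A gene was called at a fold of at least 1.2, p of at most 0.05 before and at most 0.3 after Benjamini-Hochberg adjustment. These were the thresholds of the study, which used Cuffdiff on 9 spaceflight and 9 ground control libraries. The calls here come from another test with fewer ground control libraries and are not those of the study. Of all genes tested 0.193% were called (10 higher and 14 lower in spaceflight), and of the members 0 of 9. At the fold of 1.2 and the unadjusted p alone, 2 of 9 members passed, Dbp and Bhlhe41, both lower in spaceflight, where 7.52% of all genes passed, 3.22% as lower and 4.3% as higher. At the unadjusted p alone 3 of 9 members passed, with Nr1d1 as the third, against 11.4% of all genes, and all 3 were lower, as 5.47% of all genes were at that p. The 2 groups overlapped for all 9 members, and 0.0883% of all genes had groups that do not overlap. The difference was below 0 for 7 of 9 members and for 51.7% of all genes, and its median on the log2 scale was -0.16 over the members and -0.0072 over all genes tested.

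**Figure D2:**
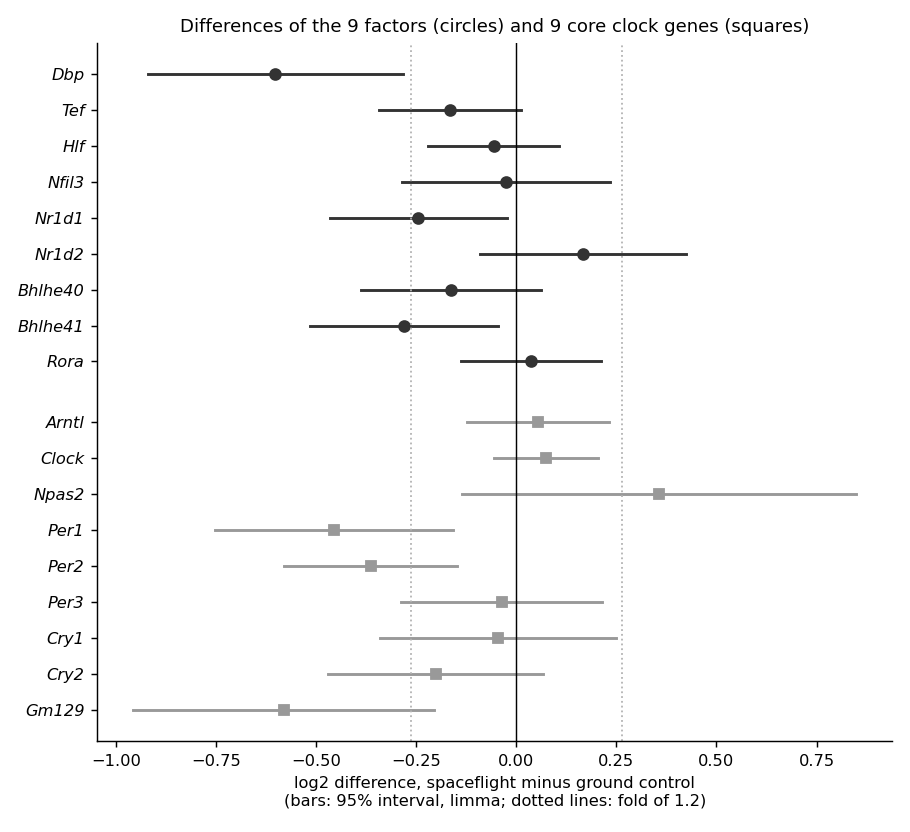
Difference in log2(FPKM + 0.1), spaceflight minus ground control, for the 9 factors (dark circles) and 9 core clock genes (grey squares), with 95% intervals from limma and dotted lines at a fold of 1.2 either way; Gm129 is the older symbol of Ciart. Dbp lies at -0.60 and Gm129 at -0.58, while Rora, Hlf, Nfil3, Arntl, Clock, Per3 and Cry1 lie within 0.1 of 0.

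Dbp (chr7:45705100-45710203, plus strand), the PAR factor whose transcript follows the E-box loop most closely, differed most. Its level in spaceflight libraries had a lowest value of 18.2, a median of 21.3 and a highest value of 26.7 FPKM, against 25.8, 31.8 and 60.3 FPKM in ground control libraries. The groups overlapped by a narrow margin: 6 of 9 spaceflight libraries were below every ground control library, and ground control M31 alone lay within the spaceflight range. The means were 22.4 ± 3.55 FPKM in spaceflight (SD, n = 9) and 35.01 ± 11.8 FPKM in ground control retinas (SD, n = 7), a log2 difference of -0.60 ± 0.151 (SE). The unadjusted p of limma was 0.00091, rank 30 of the genes tested, and the adjusted p was 0.322, just past the limit of 0.3, so that Dbp was not called.

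The call of Dbp turned on single libraries. Without spaceflight M22, M23 or M24, or without ground control M31, M33 or M35, its adjusted p by limma was 0.298, 0.274, 0.2996, 0.189, 0.244 and 0.240 and it was called, as it was without M21, M22 and M31 together (-0.62, adjusted p 0.288 by limma), the libraries with lens or corneal RNA. Without M40 (60.3 FPKM, the next ground control value being 36.4), the log2 difference was -0.46 with p of 0.00074 unadjusted and adjusted p of 0.498 in limma. Rescaling all libraries to the same sum of FPKM brought the difference to -0.13 (unadjusted p 0.515 in limma), while it moved the median of all genes to +0.46. With M21 counted as ground control the difference was -0.50 (unadjusted p 0.0089 in limma). Dbp also overlaps the antisense gene Sphk2 by 741 bases, and alignment was run with default settings that do not use strand, so reads of the overlap cannot be told apart; Sphk2 was at 28.8 ± 3.14 FPKM in spaceflight (SD, n = 9) and 31.4 ± 2.82 FPKM in ground control retinas (SD, n = 7).

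Tef (chr15:81802673-81826863, plus strand), the PAR factor first known from the thyrotroph cells of the pituitary, had a lowest value of 27.9, a median of 33.1 and a highest value of 35.9 FPKM in spaceflight libraries, against 31.5, 33.97 and 45.7 FPKM in ground control libraries. The ranges overlapped except for 4 low spaceflight libraries and ground control M40. The log2 difference was -0.17 ± 0.0841 (SE), with an unadjusted p of 0.065 in limma. Without M40 it was -0.10.

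Hlf (chr11:90336535-90390917, minus strand), the third PAR factor, was the most abundant of the family in every library. Its lowest, median and highest values were 53.5, 66.6 and 73.2 FPKM in spaceflight and 60.5, 68.2 and 75.3 FPKM in ground control libraries. Between the groups it differed by -0.06 on the log2 scale, with a 95% interval of -0.22 to 0.11 and an unadjusted p of 0.478 in limma. The ratio of Dbp to Tef within a library was 0.635 to 0.8001 (median 0.698) in spaceflight and 0.751 to 1.32 (median 0.917) in ground control libraries, and 7 of 9 spaceflight libraries lay below all ground control libraries. The ratio of Dbp to Hlf, which is likewise free of the scale of a library, had a median of 0.352 in spaceflight and 0.467 in ground control libraries, with 5 of 9 spaceflight libraries below all ground control libraries.

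Nfil3 (chr13:52967209-52982878, minus strand), the D-box repressor that is also a regulator of immune cell development, was the scarcest member. Its lowest, median and highest values were 3.95, 5.15 and 8.09 FPKM in spaceflight and 4.53, 5.51 and 6.48 FPKM in ground control libraries. The ground control range lay within the spaceflight range, which had M22, the library rich in lens and corneal RNA, at its top and M25 at its bottom. On the log2 scale the groups differed by -0.02 (95% interval -0.28 to 0.24), and it was -0.17 without M21, M22 and M31. The part of lens and corneal RNA in the level of Nfil3 was not tested.

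Of the REV-ERB receptors, Nr1d1 (chr11:98767932-98775377, minus strand), which represses Arntl, was the lower in spaceflight. Its lowest, median and highest values were 149.7, 175 and 210.1 FPKM in spaceflight libraries, against 156, 207 and 283 FPKM in ground control libraries. Apart from M31, every ground control library was at 202.6 FPKM or more, and of the spaceflight libraries M29 alone was, at 210.1 FPKM. The log2 difference was -0.24 ± 0.105 (SE), a fold of 0.844 that does not reach 1.2, with p of 0.0323 unadjusted and adjusted p of 0.411 in limma. It was called without M31 (-0.32, adjusted p 0.219 by limma) and without M21, M22 and M31 (-0.27, adjusted p 0.294 by limma), and was -0.17 with an unadjusted p of 0.083 in limma without M40.

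The end of Nr1d1 overlaps that of Thra, the thyroid hormone receptor gene on the other strand, by 1075 bases. Thra was at 30.5 ± 1.55 FPKM in spaceflight (SD, n = 9) and 38.1 ± 9.22 FPKM in ground control retinas (SD, n = 7), a log2 difference of -0.29 with an unadjusted p of 0.0178 in limma. Reads from the shared stretch cannot be told apart without strand.

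Nr1d2 (chr14:18204056-18239106, minus strand), the second REV-ERB receptor, lay the other way. Its lowest, median and highest values were 27.3, 35.4 and 39.3 FPKM in spaceflight and 21.4, 33.1 and 38.7 FPKM in ground control libraries. The ranges overlapped, with ground control M32 (21.4 FPKM) and M40 (23.3 FPKM) below every spaceflight library and 2 spaceflight libraries, M25 and M30, just above every ground control library. The difference on the log2 scale was +0.17 ± 0.123 (SE; unadjusted p 0.191 in limma) with these libraries and -0.02 without them, an alternative chosen after the values were seen. The ratio of Nr1d1 to Nr1d2 was 12.2 in M40 and 10.4 in M32, against a median of 4.90 in spaceflight and 5.90 in ground control libraries.

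Rora (chr9:68653404-69388246, plus strand), the activator at ROR elements, differed little. Its lowest, median and highest values were 60.6, 68.2 and 85.3 FPKM in spaceflight and 55.3, 71.9 and 75.0 FPKM in ground control libraries. The groups overlapped, with 2 spaceflight libraries, M23 and M24, above all ground control libraries and ground control M31 below all spaceflight libraries, and the log2 difference was +0.04 (95% interval -0.14 to 0.21). The ratio of Nr1d1, the repressor, to Rora, the activator at the same element, was 2.27 to 2.85 in spaceflight and 2.80 to 3.92 in ground control libraries, and 7 of 9 spaceflight libraries were below all ground control libraries. That ratio sets different genes against each other and holds only as a comparison between libraries.

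Bhlhe41 (chr6:145858243-145865420, minus strand), the DEC repressor linked to sleep length in people, had a lowest value of 23.7, a median of 27.8 and a highest value of 33.6 FPKM in spaceflight libraries, against 26.01, 34.9 and 50.7 FPKM in ground control libraries. Ground control M32, M34, M35 and M40 were above all spaceflight libraries, and the other ground control libraries lay among them. The log2 difference was -0.28 ± 0.112 (SE), with p of 0.0226 unadjusted and adjusted p of 0.384 in limma. It was called without ground control M31 (-0.30, adjusted p 0.246 by limma) or M33 (-0.35, adjusted p 0.263 by limma) and was -0.19 with an unadjusted p of 0.053 in limma without M40.

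Bhlhe40 (chr6:108660629-108666925, plus strand), the DEC repressor that is also induced by low oxygen and by cell activation, had lowest, median and highest values of 20.7, 27.1 and 37.8 FPKM in spaceflight and 27.6, 29.96 and 39.9 FPKM in ground control libraries. The log2 difference was -0.16 ± 0.107 (SE; unadjusted p 0.144 in limma). Its highest values were in spaceflight M22 and ground control M31, the libraries with the most lens RNA, where Bhlhe41 was at 23.7 and 31.03 FPKM. Without M31 the difference was -0.10, and without M22 -0.22. The part of lens RNA in the level of Bhlhe40 was not tested.

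The core clock was read from a list of 14 genes of which 13 had a mean of 1 FPKM or more, in a fit over the 14306 genes at that level. None of the 13 was called, where 0.147% of all genes were, and at the fold and unadjusted p alone 3 were lower (2.93% of all genes) and 0 higher (4.38% of all genes). The median log2 difference was -0.04 over the list and -0.00048 over all genes. The list was chosen with earlier results of these data known, and its counts are a description.

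The 3 were repressors of the loop. Per1 was at 37.1 ± 4.72 FPKM in spaceflight (SD, n = 9) and 52.2 ± 13.4 FPKM in ground control retinas (SD, n = 7), a log2 difference of -0.46 (unadjusted p 0.0049 in limma). Per2 was at 6.85 ± 0.841 FPKM in spaceflight (SD, n = 9) and 8.90 ± 1.65 FPKM in ground control retinas (SD, n = 7), a difference of -0.36 (unadjusted p 0.0025 in limma). Ciart, listed under its older symbol Gm129 and known to repress CLOCK and BMAL1, was at 5.55 ± 1.35 FPKM in spaceflight (SD, n = 9) and 8.49 ± 2.76 FPKM in ground control retinas (SD, n = 7), a difference of -0.58 (unadjusted p 0.0046 in limma). The groups overlapped for all 3, with 1, 7 and 5 of 9 spaceflight libraries of Per1, Per2 and Ciart below every ground control library. Ground control M40 was highest for Per2 (12.4 FPKM, next 9.38) and Ciart (13.9 FPKM, next 9.58). For Per1, M32 (67.4 FPKM) and M40 (66.9 FPKM) were highest. The differences of these 3 genes without M40 are not reported here. Each of these 3 genes, like Dbp, is known to be driven through E-boxes. So are the other PER and CRY genes, which differed by less, and a part of E-boxes in these differences was not tested.

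The activators and the other repressors differed by less. Arntl, the gene that NR1D1 represses and RORA activates, was at 32.2 ± 3.32 FPKM in spaceflight (SD, n = 9) and 31.05 ± 3.62 FPKM in ground control retinas (SD, n = 7), a log2 difference of +0.05 with a 95% interval of -0.12 to 0.23. Clock differed by +0.07, Per3 by -0.04, Cry1 by -0.05 and Cry2 by -0.20, and Npas2, which can stand in for CLOCK, by +0.36 with its highest levels in M21 (3.75 FPKM) and M22 (2.81 FPKM). None of the 12 measured genes of a list of kinases, ligases and other regulators of the clock passed the fold and unadjusted p. The lowest p of these were those of the kinase gene Gsk3b (+0.15), the nuclear receptor gene Nr2f6 (-0.26) and the ubiquitin ligase gene Btrc (+0.13), with 0.0572, 0.108 and 0.199 unadjusted p in limma.

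Of 12 genes known from mouse tissues to follow the PAR factors or the E-box loop, 4 passed the fold and unadjusted p, all lower in spaceflight, where 2.93% of all genes passed as lower, and 0 were called. They were Gm129, which is also in the core list, Tsc22d3, the glucocorticoid-induced leucine zipper gene (-0.40, unadjusted p 0.0045 in limma), Cys1, a cilium gene (-0.50, unadjusted p 0.0121 in limma), and Tspan4, a tetraspanin gene (-0.44, unadjusted p 0.0231 in limma). All 12 differences were below 0, as were 50.1% of those of all genes, with a median of -0.13. This list was chosen with earlier results of these data known, so that its counts only describe it. Wee1, a kinase gene of the cell cycle, and Usp2, a deubiquitinase gene, both known targets of the clock in liver, differed by -0.12 and -0.08. Of 12 measured genes listed as clock outputs of the retina, among them genes of melatonin, dopamine and cAMP signalling, 0 passed. The lowest p were those of Opn4, the melanopsin gene (-0.41), Aanat, the gene of the timed enzyme of melatonin synthesis (-0.36), and Nampt, an enzyme gene of NAD synthesis (+0.08), with 0.113, 0.239 and 0.449 unadjusted p in limma. Aanat was near the limit of 1 FPKM, at 0.917 ± 0.448 FPKM in spaceflight (SD, n = 9) and 1.22 ± 0.595 FPKM in ground control retinas (SD, n = 7). Melatonin itself was not measured. Drd4, the dopamine receptor gene of photoreceptors, was at 87.0 ± 9.25 FPKM in spaceflight (SD, n = 9) and 94.7 ± 23.6 FPKM in ground control retinas (SD, n = 7).

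**Figure D3:**
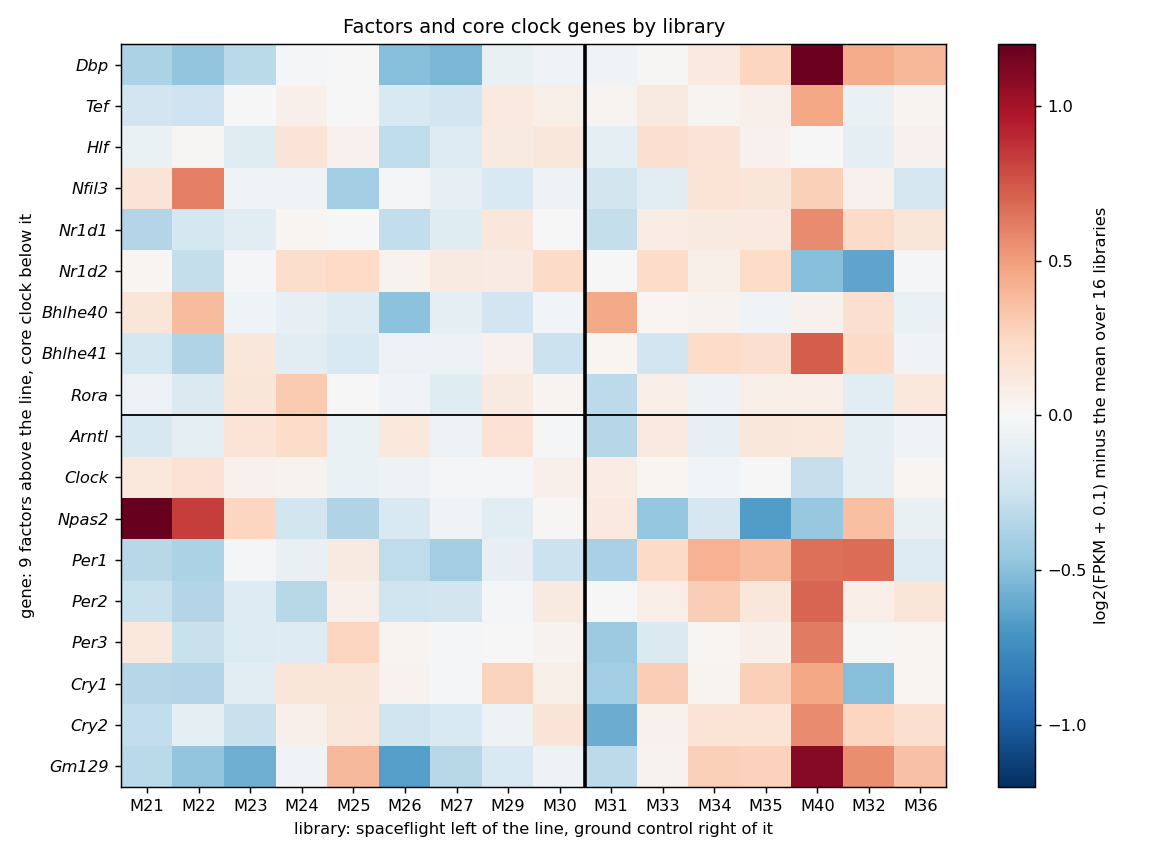
Deviation of each library (horizontal axis, spaceflight left of the line and ground control right of it) from the mean of all 16 libraries in log2(FPKM + 0.1), for the 9 factors (above the line) and 9 core clock genes (below it); red is higher and blue lower. Ground control M40 is high for Dbp, Tef, Nr1d1, Bhlhe41, Per1, Per2, Per3, Cry1, Cry2 and Gm129 and low for Nr1d2 and Clock, and M21 and M22 are high for Npas2.

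One ground control library stood apart in these genes. M40 had the highest value of the 16 libraries for 4 of the 9 members (Dbp, Tef, Nr1d1 and Bhlhe41) and for 5 of the 9 core genes drawn in the heat map (Per2, Per3, Cry1, Cry2 and Gm129), and the lowest value of Clock, at 24.2 FPKM. Its extremes were not confined to these genes, since 26.8% of the 12459 genes tested had their highest value in M40 and 10.4% their lowest. Whether the share was larger among the clock genes was not tested. M31, the lens-rich ground control library, had the highest value for 21.0% and the lowest for 21.5% of genes, and M32 the lowest for 18.3%. The SD between ground control libraries was larger than that between spaceflight libraries for 5 of 9 members (Dbp, Tef, Nr1d1, Nr1d2 and Bhlhe41), those in which M40 was first or next to last.

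Some members moved together from library to library within the groups. As deviations from the group means over the 16 libraries, Dbp and Nr1d1 had Pearson's r of 0.866 and Spearman's rank correlation of 0.903, with r of 0.793 without M40. Dbp and Gm129 had r of 0.889 (rank correlation 0.879), Nr1d1 and Cry2 r of 0.889 (rank correlation 0.824), and Dbp and Tef r of 0.786 (rank correlation 0.624). Rora and Arntl had r of 0.835 (rank correlation 0.809). Dbp and Nr1d2, by contrast, had r of -0.35 (rank correlation -0.14), and Dbp and Nfil3 r of 0.0348. Without M40, r was -0.04 for Dbp and Nr1d2, -0.28 for Dbp and Nfil3, and 0.613 for Dbp and Tef. For Dbp and Gm129 it was then 0.843, for Nr1d1 and Cry2 0.857, and for Rora and Arntl 0.832. The negative r of Dbp and Nr1d2 thus rested on M40. The points share a library in each case, with its quality and tissue make-up, so that these values only describe the libraries.

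**Figure D4:**
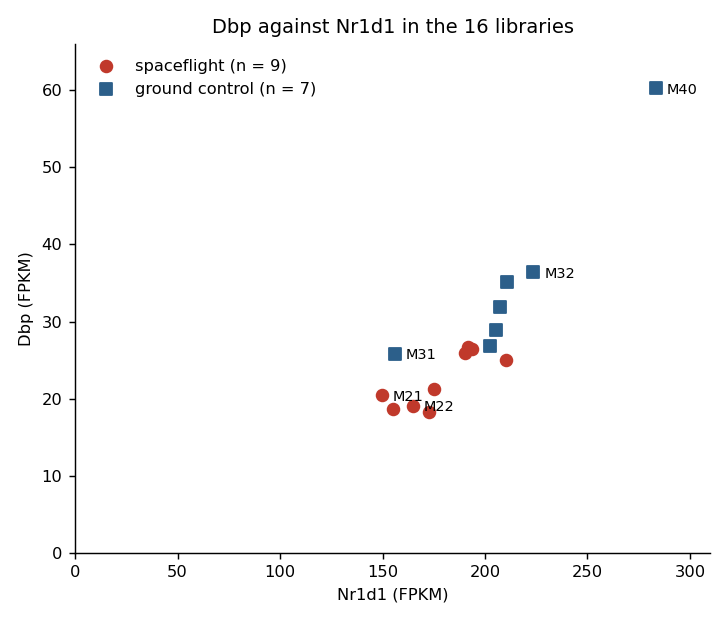
Level of Dbp (vertical axis) against Nr1d1 (horizontal axis), both in FPKM from 0, in 9 spaceflight libraries (red circles) and 7 ground control libraries (blue squares), with 5 libraries named. M40 lies apart at 60.3 FPKM of Dbp and 283 FPKM of Nr1d1, and M31 is the ground control library with low Nr1d1 (156 FPKM), at 25.8 FPKM of Dbp.

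The genes most like each member by Pearson's r over the same 16 libraries, out of 12450, were not among the core clock genes. For Dbp this depended on M40. For Dbp they were Abhd12 (r 0.916) and Yipf3 (r 0.916), for Tef Msi2 (r 0.929), and for Hlf Phlpp1 (r 0.917) and Cdh12 (r 0.891). For Nr1d1 they were Ckb (r 0.954) and Lrrc24 (r 0.953), for Nr1d2 Dhx36 (r 0.968) and Efr3a (r 0.965), and for Nfil3 Fam57a (r 0.828) and Tbc1d25 (r 0.814). For Bhlhe40 they were Mosc2 (r 0.950) and Hsp90ab1 (r 0.943), for Bhlhe41 Sh2b1 (r 0.927) and Ppp1r37 (r 0.877), and for Rora Clec16a (r 0.939) and Gdpd1 (r 0.931). Of the genes named here none was shared by members, and r between Dbp and Nr1d1 was below that of the nearest genes of either. Without M40, r with Dbp was 0.843 for the core gene Gm129, above 0.818 for Abhd12 and 0.825 for Yipf3. As the highest of 12450, the r of a nearest gene is also raised by the search itself.

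Methylation at the members was read at 994 CpGs within the genes and 5000 bases to either side, each with at least 10 reads in all 16 DNA libraries. Spaceflight libraries held 61652709 to 80242659 reads on CpGs and ground control libraries 59572205 to 105298542, with a median of 44 to 56 and of 39 to 70 reads at a shared CpG. Of the 994 CpGs 69.0% were under 10% methylated and 20.9% over 80%, against 53.5% and 32.01% of all 1071573 shared CpGs. All 378 CpGs within 1000 bases of a start of the 9 genes were under 10%, also at Nfil3 and Nr1d1, the least and the most expressed member.

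Beyond the starts the members fell into different patterns. Over the rest of the gene Dbp was at 0.406% ± 0.234 in spaceflight and 0.546% ± 0.266 in ground control retinas (SD, n = 8 each; 33 CpGs), and all 130 CpGs at Bhlhe41 were under 10%. Nr1d2 was at 82.2% in spaceflight and 82.2% in ground control retinas (29 CpGs), Hlf at 71.1% in spaceflight and 70.3% in ground control retinas (37 CpGs), and Rora at 67.0% in spaceflight and 66.5% in ground control retinas (177 CpGs). Nfil3 was at 21.1% in spaceflight and 20.4% in ground control retinas (63 CpGs), and Nr1d1 at 14.4% in spaceflight and 13.7% in ground control retinas (44 CpGs).

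No CpG was called in a logistic fit with an overdispersion factor at a difference of 10 percentage points and an adjusted p of 0.05, of all CpGs (0.0%) or of the 994. At an unadjusted p of 0.05 there were 45 of 994 CpGs at the members, 4.53%, against 4.09% of all CpGs. At that p with a difference of 10 points there was 1 of 994, against 0.188% of all CpGs. It lies in an exon of Nfil3 (chr13:52978114) at 68.7% ± 12.3 in spaceflight and 57.6% ± 8.48 in ground control retinas (SD, n = 8 each), no library having fewer than 32 reads there, and an unadjusted p of 0.0387 in the F-test across all CpGs.

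The CpG with the lowest p at each member was far from a call, with an adjusted p of 0.865 over all CpGs in the F-test. Differences of several points were seen in an intron of Rora (chr9:68864620; 89.6% ± 2.62 in spaceflight and 83.02% ± 4.96 in ground control retinas), in an intron of Hlf (chr11:90347947; 38.4% ± 4.95 in spaceflight and 31.8% ± 5.89 in ground control retinas), in the flank of Nr1d1 (chr11:98762962; 77.7% ± 5.34 in spaceflight and 83.8% ± 4.26 in ground control retinas) and in an exon of Nfil3 (chr13:52978716; 7.75% ± 4.57 in spaceflight and 3.40% ± 2.67 in ground control retinas; SD, n = 8 each). The ranges of the groups overlapped at each of these 4 CpGs. At the other members the lowest p belonged to CpGs that were nearly free of methylation. Dbp had 0.108% in spaceflight and 1.33% in ground control retinas (chr7:45705695), Bhlhe40 0% in spaceflight and 0.924% in ground control retinas (chr6:108659313), and Nr1d2 0% in spaceflight and 1.15% in ground control retinas (chr14:18238458). Bhlhe41 had 0.909% in spaceflight and 0% in ground control retinas (chr6:145863055), and Tef 1.56% in spaceflight and 0% in ground control retinas (chr15:81811559).

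**Figure D5:**
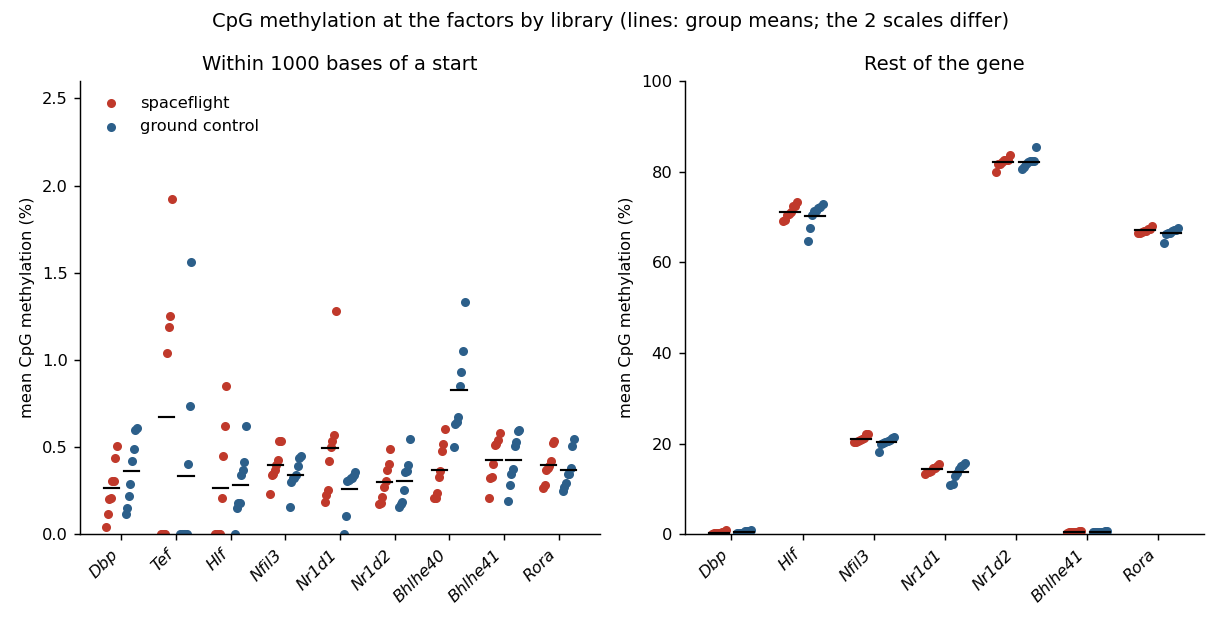
Mean CpG methylation in percent (vertical axes, from 0, on different scales) within 1000 bases of a start (left panel) and over the rest of the gene (right panel), in 8 spaceflight (red, left of each pair) and 8 ground control libraries (blue); lines are group means. Regions with under 3 shared CpGs are not drawn; promoters stay below 2%, and gene bodies lie from under 1% at Dbp and Bhlhe41 to 82.2% at Nr1d2 in both groups.

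As means of regions with at least 3 CpGs, 16 regions of the members were tested among 37819 regions with limma, and 1 had an unadjusted p under 0.05, where 4.73% of all regions did and 0.0% passed an adjusted p of 0.05. This was the promoter of Bhlhe40, with 24 CpGs. Spaceflight libraries were at 0.209% to 0.604% and ground control libraries at 0.503% to 1.33%, and the groups overlapped. The difference was -0.46 percentage points (95% interval -0.69 to -0.23, unadjusted p 0.00059 and adjusted p 0.886 in limma) at a level close to 0. The promoter of Dbp was at 0.267% ± 0.156 in spaceflight and 0.362% ± 0.196 in ground control retinas (SD, n = 8 each), a difference of -0.09 points with a 95% interval of -0.28 to 0.09.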

How the data were processed

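For RNA, the authors trimmed reads by Trimmomatic with options of their own and ran TopHat2 and Cufflinks against GRCm38 at default settings. The deposited table holds FPKM. Its 24 entries without a gene name, with up to 11.5% of a library's FPKM, and 2 columns of other mice were not used. The paper reports how many RNA reads were sequenced per sample and what share of them aligned. Read counts for single genes were not at hand. For DNA, the authors used Trim Galore 0.4.5, Bismark and methylKit, and the deposited files give read counts and the percent of methylated reads at each cytosine; counts of both strands were added here. Expression was fitted with limma 3.58.1 in R 4.3.3 (pseudocount 0.1, mean-variance trend), CpGs by logistic regression in Python 3.11.15 with an F-test (at least 10 reads in all 16 libraries), regions with limma. Promoters reach 1000 bp to either side of a start. Named genes are all members, the core clock genes, the 3 genes with the lowest p of each list, the 2 genes most like each member and the CpG with the lowest p at each; others were chosen after their values were seen. Members and lists were chosen with earlier results of these data known. Alternatives changed pseudocount, filter, scaling, spread model, eye, the label of M21 and the libraries. Scripts were tested on simulated data. Within RNA and within DNA each library is a separate mouse, but the assays share mice. Promoter sequences came from RefSeq. One gene most like Tef is not reported here.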

Additional observations from a re-analysis of the deposited data

Results flagged for a closer look

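Within groups, 68 sets of values were checked for a library that lies far from the rest (36 of FPKM and 32 of regional methylation), and 13 were marked, where chance marks about 1 in 20. In expression, ground control library M40 was far above the others for Dbp (60.3 FPKM, next 36.4), Tef (45.7 FPKM, next 35.7), Bhlhe41 (50.7 FPKM, next 35.8), Per2 (12.4 FPKM, next 9.38) and Per3 (17.5 FPKM, next 11.8). Spaceflight library M22 was far above the others for Nfil3 (8.09 FPKM, next 5.91), and M25 for Gm129 (8.496 FPKM, next 6.28). In methylation the values far from their group were the gene body of Dbp in spaceflight M22 (0.910%), the promoter of Nr1d1 in spaceflight M27 (1.28%), the promoter of Tef in ground control M37 (1.56%), the gene bodies of Nfil3 (18.2%) and Nr1d2 (85.5%) in ground control M36, and the gene body of Rora in ground control M31 (64.3%).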

How the results depend on the processing

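Spaceflight and ground control mice are different animals, so that the comparisons are unpaired. Expression and methylation were not set against each other mouse by mouse here. The log2 differences of the 9 members were recomputed under 27 alternatives, 16 of them leaving out 1 library each. Of the 243 values 217 kept sign and side of the threshold, 13 kept sign and passed it, and 13 changed sign. Among the last, Hlf under rescaling to equal sums also passed the threshold. Rescaling to equal sums of FPKM moved the median of all genes to +0.46, called 6752 genes (6743 higher), the same 6752 at the unadjusted p, and 3 members as higher (Hlf, Nr1d2 and Rora), and turned Tef (+0.31), Hlf (+0.42), Nfil3 (+0.44), Nr1d1 (+0.23), Bhlhe40 (+0.31) and Bhlhe41 (+0.19); Dbp was at -0.13 (unadjusted p 0.515 in limma), and relative to that median Dbp was at -0.59, Tef -0.15, Nr1d1 -0.23, Bhlhe41 -0.27 and Nr1d2 +0.18, and the cause was not tested. The count of genes called, 24, was 10 at a pseudocount of 1, 15 with no trend, 8 with eye as a covariate, and 0 with M21 as ground control or without M40 and M32. It was 808 without M21, M22 and M31, with 2 members called, and ran from 0 to 1400 over single libraries left out (1400 without M31, 885 without M35, 754 without M33, 345 without M22, 142 without M23, and 0 without M40, M32, M21, M25, M26, M27 or M30), with 0 to 3 members. Members were called only where more genes than 24 were called over all. Genes past the fold and unadjusted p, 937, were 570 with M21 as ground control, 394 without M40 and M32, and 549 to 1419 over single libraries left out. Over these Nfil3 ran from -0.10 to 0.0261 and Rora from -0.0115 to 0.0616; without M40 and M32 Nfil3 was at 0.0383 and Nr1d2 at -0.0235, alternatives added after the data were seen. Called CpGs were 0 except 145 with no overdispersion factor, and called regions 0 throughout. Without read counts for single genes, low genes such as Nfil3 carry a counting error that was not estimated here.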

Other observations

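Other gene lists that touch the members held these values. They too were chosen with earlier results of these data known, and their counts only describe them. Of 11 measured immediate early genes, which neurons switch on with activity, 4 passed the fold and unadjusted p as lower in spaceflight and 0 as higher (2.93% and 4.38% of all genes). At the thresholds of the study, 2 of them were called lower by the limma fit over 14306 genes, where 0.147% of all genes were called. They were Nr4a1 (-0.90, adjusted p 0.292 in limma) and Nr4a3 (-1.06, adjusted p 0.216 in limma). Egr1 differed by -0.88 and Fos by -0.66, and all 11 differences were below 0, as were 50.1% of those of all genes, with a median of -0.56. Nr4a1 was at 11.4 ± 2.69 FPKM in spaceflight (SD, n = 9) and 22.5 ± 10.9 FPKM in ground control retinas (SD, n = 7). Of 11 genes known to be induced by glucocorticoids, 1 passed the fold and unadjusted p as higher (Cdkn1a, +0.64; 4.38% of all genes) and 2 as lower (Per1 and Tsc22d3, both also in lists above; 2.93% of all genes), while Fkbp5 differed by -0.12 and Sgk1 by +0.0013.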
